A study of Mus musculus with 12 samples.

Results

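Heat-shock chaperones were followed across the basophil lineage of mice as 10 genes, Hspa1a, Hspa1b, Hsph1, Dnajb1, Dnaja1, Hspa8, Hsp90aa1, Hsp90ab1, Hspd1 and Hspe1, chosen by symbol from the 32227 genes of a bulk RNA sequencing count table. All 10 passed the filter on low counts and belonged to the 15083 genes tested. The 12 libraries came from C57BL/6J wild-type mice, untreated as far as the labels say, and each held sorted cells pooled from several animals. There were 3 libraries each of basophil progenitors (BaPs, CD34+ and CLEC12A-high), pre-basophils (CD34-, CLEC12A-high, CD9-low) and mature basophils (CD34-, CLEC12A-low, CD9-high) of the bone marrow (BM), and of mature basophils of the spleen. All were gated as CD200R3+ and cKit-. Library totals ran from 3596108 to 8151030 counts, and levels below are CPM, that is, counts scaled to a library of 1000000 counts, after TMM scaling (trimmed mean of M values).

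Chaperones bind unfolded or newly made proteins and help them fold. HSP70 proteins do so in cycles of ATP binding that J proteins (HSP40) start and exchange factors such as HSP110 end, and HSP90 takes over late folding steps of many kinases and receptors. In mitochondria, HSP60 and its lid HSP10 form a folding chamber. Some of these genes are transcribed in all cells, whereas others are held low and are switched on within minutes by heat or other stress through heat shock factor 1, which binds repeats of the unit GAA and its reverse TTC. Tissue dissociation and cell sorting are known to raise such genes too.

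The chaperones did not move as 1 set. In BaPs relative to BM mature basophils, Hsp90ab1, Hspd1 and Hspe1 were 1.94-fold to 2.62-fold higher, and Dnajb1 and Dnaja1 were 2.70-fold and 2.17-fold lower. Of the 10 genes, 5 differed among the 4 groups (edgeR quasi-likelihood F test, adjusted p under 0.05), where 57.8% of all tested genes did. The other 5 included Hspa1a and Hspa1b, whose highest and lowest libraries differed 31.8-fold and 30.1-fold, and up to 26.7-fold within a group. For 8 of the 10 genes replicate 2 was the lowest library in all 4 groups, which held for 1.67% of all tested genes.

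The promoter regions show which of these genes carry the heat shock unit close to their start. RefSeq windows of 300 bases on GRCm38.p6, most of each lying before a start, were at hand for 7 of the 10 genes (12 windows); none was used for Hspa8, Hsp90aa1 and Hsp90ab1. Each was searched for GAANNTTC and TTCNNGAA, which read the same on both strands. One or the other occurred in windows of 6 of the 7 genes and in 15.1% of all 32851 windows of the table. These are unlike units, since a gene can have several windows. Nor are the matches of the genes independent. Hspd1 and Hspe1 share 1 stretch, the windows of Hspa1a and Hspa1b are 98.7% identical, and those of Hsph1 overlap. The longer runs GAANNTTCNNGAA and TTCNNGAANNTTC, which contain both short forms, occurred in 0.603% of all windows and in at least 1 window each of Hsph1, Hspd1 and Hspe1. Neither short form was found in the 2 windows of Dnajb1. Hspd1 and Hspe1 lie head to head, and both genes read the same stretch from opposite strands. The stretches around the matches, shown for the 6 genes that had one, follow in 5′ to 3′ direction with the matched units in capitals. A match describes letters, not binding. The stretches of Hspa1a and Hspa1b lie outside annotated exons, and the others overlap an exon of some annotated transcript.
Hspa1a, chr17:34972242-34972271 (minus strand): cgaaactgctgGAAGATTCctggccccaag
Hspa1b, chr17:34959324-34959353 (minus strand): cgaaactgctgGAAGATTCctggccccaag
Hsph1, chr5:149636351-149636380 (minus strand): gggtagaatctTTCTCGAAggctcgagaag
Hsph1, chr5:149636279-149636308 (minus strand): gctgcagaTTCTGGAAAGTTCtcctcagta
Dnaja1, chr4:40722333-40722362 (plus strand): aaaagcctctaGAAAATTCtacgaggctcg
Hspd1, chr1:55088053-55088082 (minus strand): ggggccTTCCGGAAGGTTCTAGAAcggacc
Hspe1, chr1:55088053-55088082 (plus strand): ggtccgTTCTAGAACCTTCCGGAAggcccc

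The windows of Hspa1a and Hspa1b differed at 4 of 300 bases (98.7% identity), and the part of the Hspa1a window before its start is given in full, since the 2 genes stood apart from the rest by their spread between libraries.
Hspa1a, chr17:34972157-34972406 (minus strand): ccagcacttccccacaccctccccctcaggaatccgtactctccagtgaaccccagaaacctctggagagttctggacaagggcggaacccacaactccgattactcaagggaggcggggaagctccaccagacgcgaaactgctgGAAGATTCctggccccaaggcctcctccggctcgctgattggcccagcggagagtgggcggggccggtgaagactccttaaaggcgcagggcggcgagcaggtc

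Several values rest on sequence that the genes share with other rows of the table. The sources used here do not say what was done with reads that match more than 1 gene. Hspa1a and Hspa1b align over 2201 bases at 99.2% identity, so their separate counts are uncertain, and their sum was fitted too. Annotated pseudogenes with at least 90% identity over at least 200 bases, together with rows named after a member, held 39.0% as many counts as Hspa8 (12 rows, among them Gm15459 and Gm8355), 22.7% as many as Hsp90aa1 (Gm12346 and Gm5844), 15.6% as many as Dnaja1 and 14.3% as many as Hspd1 (chiefly Hspd1-ps3, 540 counts over the 12 libraries). For Hsp90ab1 it was 0.422%, and none was found for Hspa1a, Hspa1b, Hsph1 or Dnajb1. Hspe1 has near-copies as well, so its level is uncertain in the same way, and the Hspe1 to Hspd1 ratio below was not recomputed with them. Adding these rows to their genes left the called members unchanged in every comparison. Hspa1a overlaps the antisense gene Gm20481 over 2225 bases, Dnaja1 overlaps the end of Smu1 over 608 bases, and Hspd1 and Hspe1 overlap head to head over 112 bases, and without a stated strand such reads cannot be told apart.

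The groups and libraries were compared first with markers. All 10 basophil markers had counts in every group, and their summed level was 8379 to 72240 CPM. BaP replicate 3 stood apart with 25797 CPM of basophil markers, against 63653 and 69076 CPM in BaP replicates 2 and 1. It also held 2484 CPM over the 7 tested of 8 erythroid markers, 506 CPM over 7 of 9 T and NK cell markers and 217 CPM over 6 of 8 macrophage and dendritic markers, where the other 11 libraries had 51.8 to 267, 13.9 to 44.6 and 10.6 to 28.6 CPM. Its part in the results was not tested beyond leaving the library out, and values without it are given where they change a call. The 8 B cell markers summed to 391 to 655 CPM in spleen libraries and 55.8 to 80.3 CPM in BM mature libraries, and no B cell marker was at 0 in any group. The 10 neutrophil markers summed to 1006 to 2661 CPM in BaPs and pre-basophils and to 67.4 to 158 CPM in mature basophils. These are bulk samples, in which fewer cells of a type and less RNA per cell cannot be told apart.

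Ranked by CPM per kilobase of the longest GENCODE transcript of the gene, the order changed along the lineage. Whether counts in these libraries grow with transcript length is not stated in the sources used here. Part of the order depends on the division. By CPM alone, averaged over the 12 libraries, Hspd1 (58.6 CPM) lay above Hspe1 (31.2 CPM). In BaPs Hsp90ab1 was highest (430 ± 29.5, SD, n = 3), followed by Hspa8 (382 ± 79.9), Hsp90aa1 (184 ± 43.3) and Dnajb1 (159 ± 38.3). In pre-basophils Hspa8 led with 343 ± 87.5, ahead of Hsp90ab1 with 291 ± 48.0 CPM per kilobase. In BM mature basophils Dnajb1 came first (428 ± 60.9), then Hspa8 (263 ± 71.1) and Hsp90ab1 (205 ± 18.6), and in spleen mature basophils Dnajb1 reached 814 ± 136 CPM per kilobase, above Hspa8 (382 ± 122). Dnaja1 lay between 50.7 and 110, Hspe1 between 22.6 and 69.5 and Hspd1 between 15.99 and 36.9 CPM per kilobase in the group means. Hsph1, Hspa1a and Hspa1b were the lowest 3, with group means of 4.59 to 10.7, 2.13 to 7.89 and 1.499 to 6.52 CPM per kilobase. Over all 12 libraries the ranges of neighbours in this order overlapped at every step, so the order of neighbours is not firm beyond their spread. These levels leave out near-copies. Near-copies held 27.6% to 54.3% as many counts as Hspa8 in single libraries, against 0.245% to 0.8% for Hsp90ab1. The order of these 2 genes is therefore not settled.

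**Figure D1:**
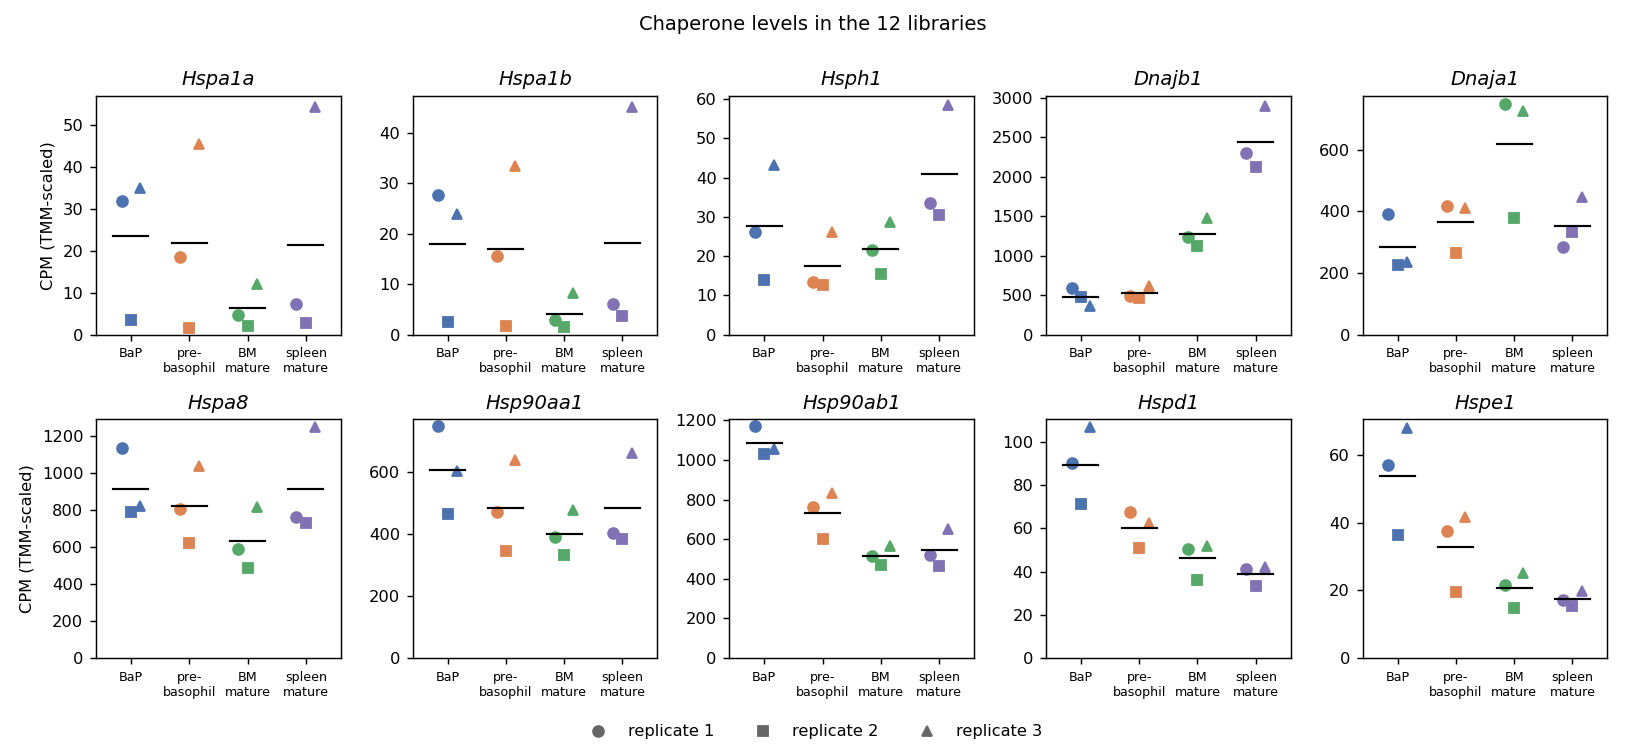
TMM-scaled CPM (linear axis from 0) of the 10 chaperone genes in the 12 libraries, by group, with a bar at each group mean and a symbol for each replicate number (n = 3 per group). Dnajb1 was highest in spleen mature basophils, Hsp90ab1, Hspd1 and Hspe1 had their highest group means in BaPs, and replicate 2 (squares) of Hspa1a was lowest in every group.

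The stress-inducible HSP70 genes Hspa1a (ENSMUSG00000091971.3, GRCm38 chromosome 17, 34969190 to 34972156, minus strand) and Hspa1b (ENSMUSG00000090877.3, chromosome 17, 34956436 to 34959238, minus strand) encode nearly the same protein. Hspa1a had 31.8, 3.54 and 35.0 CPM in BaP replicates 1 to 3, 18.4, 1.70 and 45.4 CPM in the pre-basophil libraries, 4.77, 2.003 and 12.2 CPM in the BM mature and 7.20, 2.81 and 54.2 CPM in the spleen mature libraries. The groups overlapped throughout, and within each the replicate 2 library was lowest and the replicate 3 library highest. Replicate 3 exceeded replicate 2 9.88-fold in the BaPs, 26.7-fold in the pre-basophils, and 6.07-fold and 19.3-fold in the mature cells of marrow and spleen. The deposited counts behind these levels ran from 7 to 408 per library. Hspa1b had 27.7, 2.59 and 23.9 CPM in the BaP libraries, 15.7, 1.70 and 33.4 CPM in the pre-basophil libraries, 2.86, 1.502 and 8.24 CPM in the BM mature and 6.08, 3.63 and 45.2 CPM in the spleen mature libraries. Replicate 2 was again lowest in every group, and replicate 3 was highest in all but the BaPs. The level of Hspa1b followed that of Hspa1a, with a Pearson's r of 0.988 on log2 CPM over the 12 libraries.

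Neither gene was called in the fit of all 12 libraries after the filter on low counts and without the replicate number. A fit of pre-basophils and BM mature basophils alone called Hspa1b (log2 1.94, edgeR adjusted p 0.0489). Without the filter both genes were called in every comparison but BaPs against pre-basophils. Hspa1a in pre-basophils against BM mature basophils then had an edgeR adjusted p of 1.57e-12. Its log2 difference of 1.76 was the same as after the filter (edgeR adjusted p 0.277), and the libraries overlapped. Such a p-value cannot be read as the spread between libraries. Pre-basophils had 21.9 ± 22.1 and BM mature basophils 6.31 ± 5.25 CPM of Hspa1a (SD, n = 3 each; log2 difference 1.76, SE 1.13, edgeR adjusted p 0.277), and Hspa1b gave a log2 difference of 1.95 (SE 1.10, edgeR adjusted p 0.213). BaPs, with 23.4 ± 17.3 CPM of Hspa1a, differed from BM mature basophils by 1.84 (SE 1.12, edgeR adjusted p 0.197). Same-numbered bone marrow libraries varied together over the chaperones for replicates 2 and 3, where deviations from group means correlated at 0.804 to 0.985. For replicate 1, BaPs and pre-basophils correlated at 0.801, but with BM mature libraries the values were -0.459 for BaPs and -0.196 for pre-basophils. The block treats every number as paired. With the replicate number as a block, both genes were higher in pre-basophils than in BM mature basophils. Hspa1a gave a log2 difference of 1.66 (SE 0.49, edgeR adjusted p 0.0230) and Hspa1b 1.90 (SE 0.56, adjusted p 0.0218). Both were also higher in BaPs than in BM mature basophils. There Hspa1a gave 1.99 (SE 0.49, edgeR adjusted p 0.00516) and Hspa1b 2.17 (SE 0.56, adjusted p 0.00645). BaPs against pre-basophils was not called with the block either, with edgeR adjusted p values of 0.683 and 0.776. The sum of both genes gave the same picture as each alone, with a log2 difference of 1.84 (SE 1.11, edgeR adjusted p 0.243) between pre-basophils and BM mature basophils.

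Hsph1 (ENSMUSG00000029657.15, chromosome 5, 149614287 to 149636376, minus strand) encodes HSP110, an exchange factor for HSP70. It had 26.0, 13.9 and 43.3 CPM in the BaP libraries, 13.4, 12.7 and 26.2 CPM in the pre-basophil libraries, 21.6, 15.5 and 28.6 CPM in the BM mature and 33.6, 30.5 and 58.4 CPM in the spleen mature libraries. All 3 spleen libraries lay above the BM mature ones, at 40.9 ± 15.3 against 21.9 ± 6.56 CPM (SD, n = 3 each), but the log2 difference of 0.89 (SE 0.39) was not called (edgeR adjusted p 0.175). It was called without BaP replicate 3 (edgeR adjusted p 0.0445). Between BaPs and pre-basophils the value was 0.67 (SE 0.40, edgeR adjusted p 0.342), and with the block it was called at 0.64 (SE 0.17, adjusted p 0.0383). A blocked fit of the 9 bone marrow libraries alone gave 0.64 as well and did not call it (edgeR adjusted p 0.0569). Without BaP replicate 3 the unblocked value was 0.15 (SE 0.36, edgeR adjusted p 0.829), so the value without the block rested on that library. Among the 4 groups Hsph1 had an edgeR adjusted p of 0.0649 and was called without BaP replicate 2 or 3 or pre-basophil replicate 3, with an adjusted p down to 0.00565.

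Dnajb1 (ENSMUSG00000005483.10, chromosome 8, 83608193 to 83612653, plus strand), a stress-inducible J protein that delivers clients to HSP70, had the smallest adjusted p of the 10 genes among the 4 groups (edgeR adjusted p 4.31e-07). It had 590, 477 and 361 CPM in BaP replicates 1 to 3, 493, 467 and 619 CPM in the pre-basophil libraries, 1241, 1122 and 1481 CPM in the BM mature and 2302, 2119 and 2897 CPM in the spleen mature libraries. The mature libraries lay above all BaP and pre-basophil libraries, and the spleen libraries above all BM mature ones. Set against mature cells of the marrow, Dnajb1 was 2.43-fold lower in pre-basophils (log2 -1.28, SE 0.19, edgeR adjusted p 0.000234), 2.70-fold lower in BaPs (log2 -1.43, SE 0.19, edgeR adjusted p 3.62e-05) and 1.90-fold higher in spleen mature basophils (log2 0.93, SE 0.19, edgeR adjusted p 0.0118). The first 2 calls held without any 1 library, and without BaP replicate 3 the BaP value was -1.25 (SE 0.16, edgeR adjusted p 4.27e-06). The spleen call was lost without BM mature replicate 1 or 2 or spleen mature replicate 3, with an edgeR adjusted p of up to 0.0677, and over all 12 such fits the log2 difference was 0.79 to 1.05. BaPs and pre-basophils did not differ detectably (log2 -0.15, SE 0.18, edgeR adjusted p 0.697).

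Like Dnajb1, 18 immediate-early genes that tissue dissociation is known to raise summed lower in BaPs and pre-basophils than in BM mature basophils. Their summed level was 26097 to 35585 CPM in BaPs, 52055 to 58927 in pre-basophils, 104570 to 129761 in BM mature and 124327 to 146905 CPM in spleen mature basophils. Of the 18 genes 13 were lower in BaPs than in pre-basophils (4.29% of all genes), where Dnajb1 did not differ detectably. In spleen against BM mature basophils 2 were higher (3.16% of all genes) and 2 lower (4.67% of all genes). Their median log2 difference there was 0.20, and Dnajb1 was higher. The part of these genes in the Dnajb1 differences was not tested. The group means of Hspa1a and Hspa1b, which are inducible as well, were lowest in BM mature basophils. Without the block neither was called among the 4 groups (edgeR adjusted p 0.450 and 0.333), and with it both were (0.0211 and 0.0220).

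Dnaja1 (ENSMUSG00000028410.13, chromosome 4, 40722150 to 40737149, plus strand), a second cytosolic J protein, was highest in the bone marrow mature cells. It had 392, 227 and 236 CPM in the BaP libraries, 417, 263 and 412 CPM in the pre-basophil libraries, 748, 380 and 724 CPM in the BM mature and 284, 333 and 445 CPM in the spleen mature libraries. BM mature replicate 2 lay within the range of the other groups, whereas BM mature replicates 1 and 3 lay above all other libraries. Dnaja1 was 2.17-fold lower in BaPs than in mature cells of the marrow (log2 -1.11, SE 0.28, edgeR adjusted p 0.00543), and this call held without any 1 library. In pre-basophils it differed from BM mature basophils by -0.76 (SE 0.28, edgeR adjusted p 0.0586), which was called with the block (log2 -0.74, SE 0.21, adjusted p 0.0204). Spleen against BM mature basophils gave -0.80 (SE 0.28, edgeR adjusted p 0.0952). Without BaP replicate 3 both were called, with edgeR adjusted p values of 0.0196 and 0.0264, and the BaP difference was -0.98 (SE 0.28, adjusted p 0.00649). The pre-basophil value was also called without BaP replicate 1 or BM mature replicate 2, with an adjusted p down to 0.0177. Its difference among the 4 groups (edgeR adjusted p 0.0157) was lost without BM mature replicate 1 or 3, with an adjusted p of up to 0.0974, and under scaling by library size alone (0.0586).

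Hspa8 (ENSMUSG00000015656.17, chromosome 9, 40800984 to 40810087, plus strand) encodes the HSP70 that cells make at all times. It had 1134, 788 and 819 CPM in the BaP libraries, 807, 621 and 1039 CPM in the pre-basophil libraries, 587, 486 and 818 CPM in the BM mature and 762, 730 and 1252 CPM in the spleen mature libraries. The 4 groups overlapped, and the fit of all 12 libraries after the filter and without the block called no comparison (edgeR adjusted p 0.220 among the 4 groups). With the block it was higher in BaPs than in mature cells of the marrow (log2 0.58, SE 0.17, edgeR adjusted p 0.0161), where the fit without it gave 0.53 (SE 0.25, adjusted p 0.0981) and that without BaP replicate 3 gave 0.62 (SE 0.24, adjusted p 0.0421). It was also called without BM mature replicate 3, with an adjusted p of 0.0407.

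Of the cytosolic HSP90 genes only Hsp90ab1 was called in the fit of all 12 libraries after the filter and without the block. Hsp90ab1 (ENSMUSG00000023944.14, chromosome 17, 45567775 to 45573271, minus strand), the constitutive form, had 1169, 1029 and 1056 CPM in the BaP libraries, 764, 599 and 834 CPM in the pre-basophil libraries, 515, 470 and 564 CPM in the BM mature and 520, 463 and 654 CPM in the spleen mature libraries. BaPs, pre-basophils and BM mature basophils did not overlap, whereas the 2 mature groups did. It was 2.10-fold higher in BaPs than in mature cells of the marrow (log2 1.07, SE 0.15, edgeR adjusted p 6.73e-05), and this held without any 1 library. The steps in between were smaller, with a log2 difference of 0.50 from BM mature basophils to pre-basophils (SE 0.15, edgeR adjusted p 0.0228) and 0.57 from pre-basophils to BaPs (SE 0.15, edgeR adjusted p 0.0372). The lower step lost its call when pre-basophil replicate 1 or 3, or else BM mature replicate 1 or 2, was left out, with an adjusted p of up to 0.103. The upper step lost it in 7 of the 12 fits that left out 1 library (BaP replicate 1, any pre-basophil replicate, BM mature replicate 1 or 2, or spleen mature replicate 1), with an adjusted p of up to 0.175. Spleen and BM mature basophils differed by 0.08 (SE 0.15, edgeR adjusted p 0.790).

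Hsp90aa1 (ENSMUSG00000021270.13, chromosome 12, 110690605 to 110702728, minus strand), the more inducible form, had 747, 463 and 602 CPM in the BaP libraries, 469, 345 and 637 CPM in the pre-basophil libraries, 389, 330 and 476 CPM in the BM mature and 403, 382 and 660 CPM in the spleen mature libraries. The groups overlapped, and it was not called among the 4 groups (edgeR adjusted p 0.227). Against BM mature basophils BaPs gave 0.60 (SE 0.25, edgeR adjusted p 0.0683), which was called with the block (log2 0.61, SE 0.16, adjusted p 0.00673) and without BaP replicate 3 (adjusted p 0.0482). It was also called without BaP replicate 2 or spleen mature replicate 3, with an adjusted p down to 0.0337.

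Hspd1 (ENSMUSG00000025980.14, chromosome 1, 55077835 to 55088243, minus strand) and Hspe1 (ENSMUSG00000073676.4, chromosome 1, 55088132 to 55091307, plus strand) encode HSP60 and HSP10 of the mitochondrial folding chamber. Hspd1 had 90.1, 71.2 and 107 CPM in the BaP libraries, 67.6, 50.9 and 62.4 CPM in the pre-basophil libraries, 50.6, 36.1 and 51.7 CPM in the BM mature and 41.0, 33.2 and 42.1 CPM in the spleen mature libraries. The BaP libraries lay above all others. Hspe1 had 57.1, 36.3 and 67.9 CPM in the BaP libraries, 37.5, 19.5 and 41.6 CPM in the pre-basophil libraries, 21.6, 14.8 and 25.3 CPM in the BM mature and 17.1, 15.5 and 19.8 CPM in the spleen mature libraries. Its group means fell in the same order, and every BaP library lay above every mature one. Both were higher in BaPs than in BM mature basophils, Hspd1 by 1.94-fold (log2 0.96, SE 0.18, edgeR adjusted p 0.000736) and Hspe1 by 2.62-fold (log2 1.39, SE 0.28, edgeR adjusted p 0.00131). Without BaP replicate 3 these were 0.81 (SE 0.17, adjusted p 0.000633) and 1.18 (SE 0.27, adjusted p 0.00146). The step from BM mature basophils to pre-basophils was called for Hspe1 without that library (log2 0.68, SE 0.25, edgeR adjusted p 0.0438) and without pre-basophil replicate 2 (adjusted p 0.0218). The step from pre-basophils to BaPs was called without BaP replicate 2 for Hspd1 (adjusted p 0.0313) and Hspe1 (adjusted p 0.0496).

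The single steps of the mitochondrial genes were not called in the fit without the block and were called with it. From BM mature basophils to pre-basophils Hspd1 gave 0.39 (SE 0.18, edgeR adjusted p 0.138) without and 0.39 (SE 0.11, adjusted p 0.0197) with it, and Hspe1 gave 0.68 (SE 0.29, adjusted p 0.101) without and 0.65 (SE 0.16, adjusted p 0.00706) with it. From pre-basophils to BaPs Hspd1 gave 0.57 (SE 0.18, edgeR adjusted p 0.0686) without and 0.56 (SE 0.11, adjusted p 0.00835) with it, and Hspe1 gave 0.71 (SE 0.27, adjusted p 0.132) without and 0.72 (SE 0.15, adjusted p 0.00955) with it. The 2 mature groups did not differ detectably in either gene (log2 -0.25 and -0.24, edgeR adjusted p 0.429 and 0.658).

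**Figure D2:**
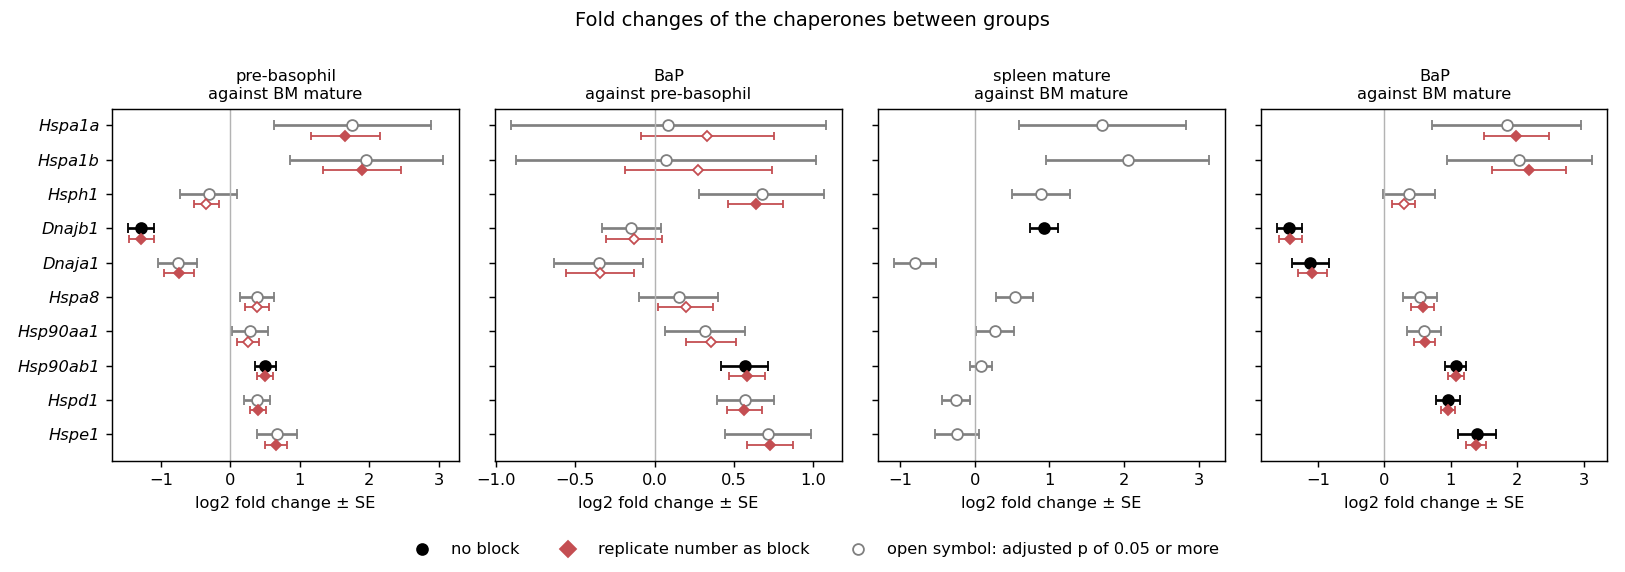
Log2 fold changes (horizontal axis, ± SE) of the 10 chaperones in the 4 comparisons of groups, from the fit without a block (circles) and, for the 3 bone marrow comparisons, with the replicate number as a block (diamonds); open symbols did not pass an edgeR adjusted p of 0.05. The block narrowed the errors of Hspa1a and Hspa1b most, while their values moved little apart from BaP against pre-basophil.

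Counted by comparison, pre-basophils against BM mature basophils called 1 of the 10 members higher (Hsp90ab1), where 16.3% of all tested genes were higher, and 1 lower (Dnajb1), where 11.0% were lower. The median log2 difference of the members was 0.38, against -0.00 over all tested genes. BaPs against pre-basophils called 1 higher (Hsp90ab1; 2.79% of all genes) and 0 lower (4.29% of all genes; 0 at an unadjusted p under 0.05), with a median of 0.24 against 0.02. Spleen against BM mature basophils called 1 higher (Dnajb1; 3.16% of all genes) and 0 lower (4.67% of all genes), with a median of 0.40 against 0.01. There Dnaja1 had an unadjusted edgeR p of 0.0126 and was called lower by DESeq2 (adjusted p 0.0400). BaPs against BM mature basophils called 3 higher (Hsp90ab1, Hspd1 and Hspe1; 25.3% of all genes) and 2 lower (Dnajb1 and Dnaja1; 19.7% of all genes), with a median of 0.78 against 0.05. This comparison shares its libraries with the 2 steps between, so the 3 are not independent.

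With the replicate number as a block, 7 of the 10 members differed in pre-basophils against BM mature basophils, of which 5 were higher and 2 lower, where 29.7% of all genes were called. BaPs against pre-basophils called 4 (9.28% of all genes), all higher, and BaPs against BM mature basophils called 9 (46.9% of all genes), 7 higher and 2 lower, Hsph1 being the exception. Over all genes the block raised the calls less, from 4112 to 4483, from 1068 to 1399 and from 6785 to 7069. A fit of the 9 bone marrow libraries alone with the block called 7, 3 and 9 members, the difference being Hsph1 in BaPs against pre-basophils.

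Most members shared their order of replicate numbers across the groups. Replicate 2 was the lowest of its group for 9 members in BaPs, for 10 in pre-basophils, for 10 in BM mature and for 9 in spleen mature basophils, where 28.6%, 33.5%, 32.6% and 33.0% of all tested genes had it lowest. The exceptions were Dnajb1 in BaPs, where replicate 3 was lowest, and Dnaja1 in the spleen, where replicate 1 was. Replicate 3 was highest for 4, 8, 9 and 10 members in the same order of groups, against 39.2%, 32.0%, 31.5% and 36.9% of all genes. The gap was widest for Hspa1a and Hspa1b and far smaller for Hsp90ab1, whose replicate 3 exceeded replicate 2 by 1.03-fold to 1.41-fold. Hspa8 and Hsp90aa1 lay in between, with 1.04-fold to 1.72-fold and 1.30-fold to 1.85-fold. The labels do not say what a replicate number stands for, and the 10 genes come from the same libraries, so this is 1 pattern and not 10.

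**Figure D3:**
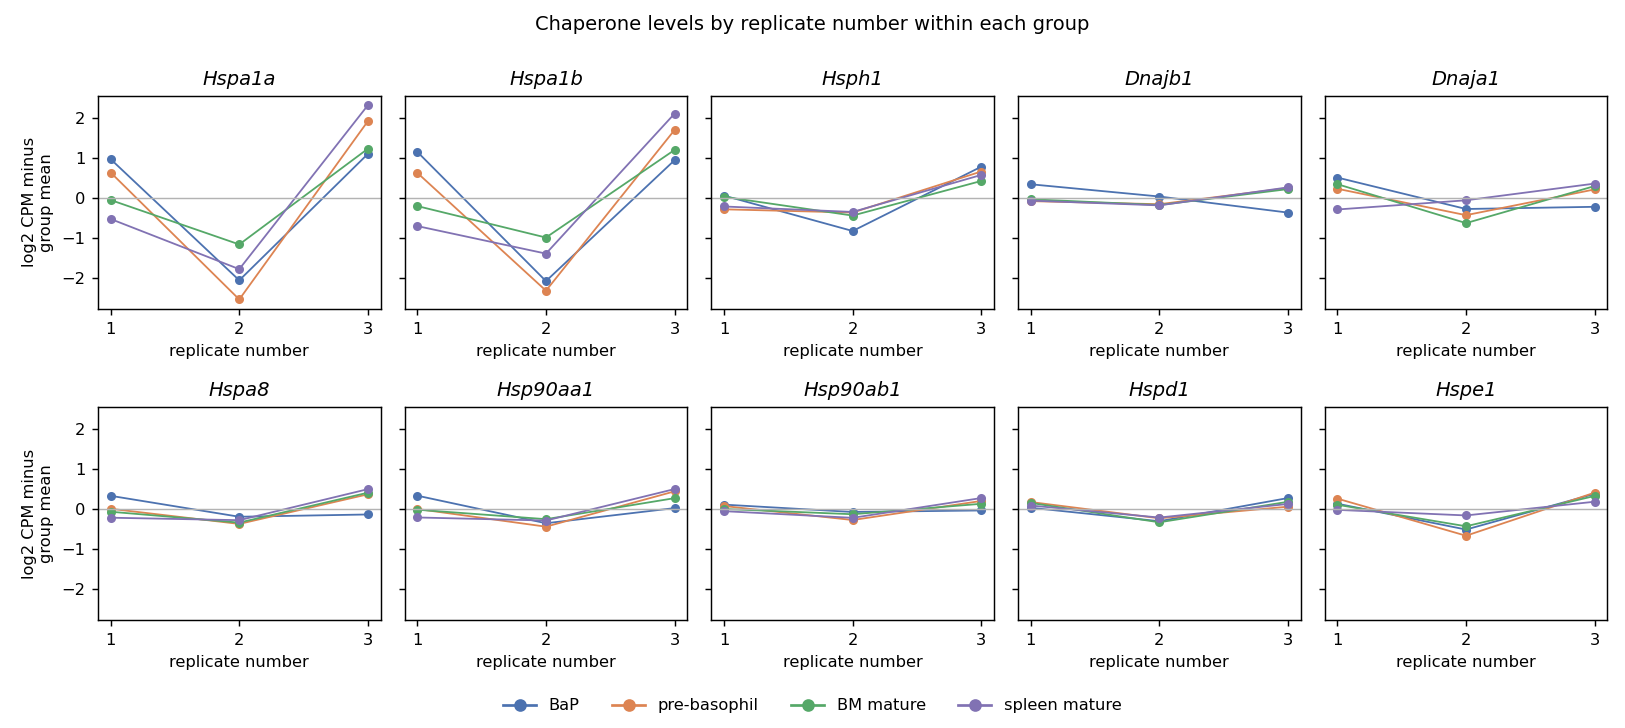
Log2 CPM of each chaperone minus the mean of its group (vertical axis) for the 3 libraries of each group, by replicate number, with lines joining the libraries of a group for reading only. Replicate 2 lies lowest in all 4 groups for 8 of the 10 genes, and Hspa1a and Hspa1b span the widest range.

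Each of the other chaperone lists held at most 1 gene with this pattern, which 1.67% of all tested genes had. Replicate 2 was lowest in all 4 groups for 1 of 6 other HSP70 and HSP110 genes (Hspa9), 1 of 16 other J proteins (Dnajb4), 0 of 19 co-chaperones, 1 of 8 subunits of the cytosolic chaperonin TRiC (Cct6a), 0 of 6 prefoldins and 1 of 3 genes of heat shock factors and their regulators (Hsf2). It was also lowest for 1 of 14 mitochondrial chaperones and proteases (Hspa9 again), 0 of 2 small heat shock proteins and 1 of 18 immediate-early genes (Atf3). Hspa9, Dnajb4, Cct6a, Hsf2 and Atf3 were named because the counts were this small, after their values were seen.

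Genes with the most similar pattern over the 12 libraries, among 8438 others with a mean of at least 10 CPM, were mostly members or their copies. For Hspa1b these were Hspa1a (Pearson's r 0.988), Hsp90aa1 (0.924) and the pseudogene Gm5844 (0.905), which is a near-copy of Hsp90aa1. For Hspa8 they were its own near-copy Gm15459 (0.919), Hsp90aa1 (0.917) and Gm12346 (0.910). For Hspd1 they were Hspe1 (0.972), Mif-ps (0.949) and Ssb (0.948). The 12 libraries share groups and replicate numbers, and near-copies can share reads, so these correlations describe the libraries and carry no test.

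Ratios within a library set forms of the same chaperone against each other and do not depend on scaling. They were compared between the 6 CLEC12A-high libraries (BaPs and pre-basophils) and the 6 CLEC12A-low libraries (both mature groups) by an exact two-sided permutation test over all assignments, with Benjamini-Hochberg (BH) adjustment over the 3 ratios. The log2 ratio of Hsp90aa1 to Hsp90ab1 was -0.65, -1.15 and -0.81 in the BaP libraries, -0.70, -0.80 and -0.39 in the pre-basophil libraries, -0.40, -0.51 and -0.25 in the BM mature and -0.37, -0.28 and 0.01 in the spleen mature libraries. It was lower in CLEC12A-high cells, at -0.75 ± 0.25 against -0.30 ± 0.18 (SD, n = 6 each; difference -0.45, exact permutation p 0.00649, BH-adjusted 0.0195). Hsp90aa1 counts thus came to 54.7% of those of Hsp90ab1 in BaPs and 86.4% in spleen mature basophils, as geometric means. In the bone marrow alone, 6 libraries against 3, the difference was -0.36 and did not pass (exact permutation p 0.0714, BH-adjusted 0.214).

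The ratio of Hspe1 to Hspd1 was -0.66, -0.97 and -0.65 in the BaP libraries, -0.85, -1.38 and -0.58 in the pre-basophil libraries, -1.22, -1.28 and -1.03 in the BM mature and -1.25, -1.09 and -1.09 in the spleen mature libraries on the log2 scale. All but pre-basophil replicate 2 of the CLEC12A-high libraries lay above all CLEC12A-low ones. The difference of 0.31 had an exact permutation p of 0.0433 and did not pass after adjustment (BH-adjusted 0.0649). In the bone marrow alone it was 0.33 and did not pass either (exact permutation p 0.143, BH-adjusted 0.214). With exchanges only within a replicate number, 216 assignments, it passed (BH-adjusted 0.0417). These exchanges included the spleen libraries, whose replicate numbers did not pair by the rule given below. The ratio of Hspa1a plus Hspa1b to Hspa8 was -5.13 ± 1.66 in CLEC12A-high and -5.82 ± 1.24 in CLEC12A-low libraries (SD, n = 6 each; exact permutation p 0.422, BH-adjusted 0.422). As geometric means, inducible HSP70 had 1.35% to 3.11% as many counts as Hspa8 in the 4 groups.

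**Figure D4:**
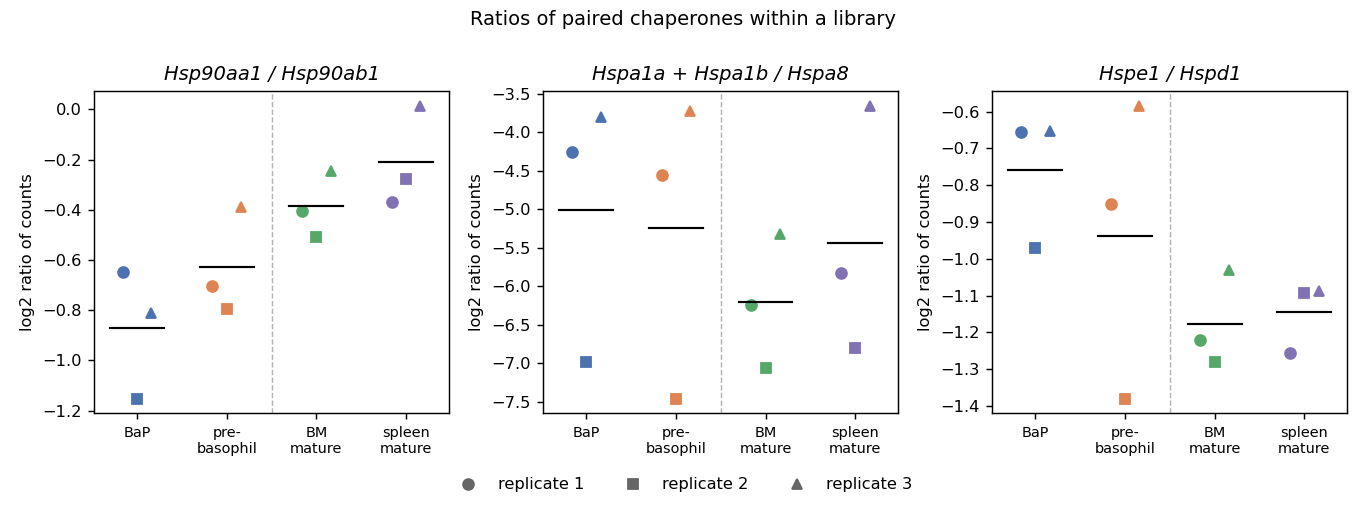
Log2 ratios of deposited counts within each library (vertical axes differ) for Hsp90aa1 to Hsp90ab1, Hspa1a plus Hspa1b to Hspa8 and Hspe1 to Hspd1, by group with a bar at the mean; the dashed line parts the CLEC12A-high from the CLEC12A-low groups. The first ratio is lower on the left (difference -0.45), and the second spans over 3 log2 units within BaPs, pre-basophils and spleen mature basophils.

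Partners of these chaperones outside the 10 genes were called higher toward the progenitors more often than lower, as were Hsp90ab1, Hspd1 and Hspe1. In pre-basophils against BM mature basophils, 4 of 6 tested HSP70 and HSP110 relatives, 5 of 16 J proteins, 9 of 19 co-chaperones and 7 of 8 TRiC subunits were higher and none lower, with medians of 0.57, 0.28, 0.46 and 0.51 against -0.00 over all genes, of which 16.3% were higher and 11.0% lower. In BaPs against BM mature basophils, 5 of 6, 7 of 16 (3 lower), 15 of 19 (1 lower) and 8 of 8 were higher, with medians of 1.02, 0.51, 0.90 and 0.84 against 0.05 over all genes, of which 25.3% were higher and 19.7% lower. The 3 J proteins of 16 that were lower are thus near the share over all genes. BaPs against pre-basophils called 2, 1, 4 and 2 of them higher and none lower, with medians of 0.23, 0.17, 0.27 and 0.29 against 0.02, where 2.79% of all genes were higher and 4.29% lower. In the spleen against BM mature basophils none was higher, and 2 of 19 co-chaperones were lower, where 3.16% of all genes were higher and 4.67% lower.

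Named by level or by p, the co-chaperone Stip1, which links HSP70 to HSP90, stood at 94.4 ± 11.1 CPM in BaPs, at 63.4 ± 2.67 CPM in pre-basophils and at 24.8 ± 2.60 CPM in mature cells of the marrow (SD, n = 3; edgeR adjusted p 0.0258 for the upper and 2.36e-05 for the lower step). The HSP90 co-chaperone Chordc1 had 46.5 ± 5.58, 33.1 ± 1.74 and 18.7 ± 1.65 CPM in the same groups (edgeR adjusted p 0.0426 and 0.000839), and the abundant kinase co-chaperone Cdc37 had 160 ± 21.2, 145 ± 3.26 and 126 ± 6.68 CPM (edgeR adjusted p 0.511 and 0.228). Of the HSP70 relatives, Hspa13 had 51.5 ± 8.02 CPM in pre-basophils, against 16.4 ± 0.650 CPM in BM mature basophils (edgeR adjusted p 8.40e-05), and Hspa4 stood at 104 ± 3.19 CPM for BaPs and 80.4 ± 6.84 for pre-basophils (edgeR adjusted p 0.0426). The J protein Dnajc9, a histone chaperone, rose from 24.6 ± 3.62 CPM in BM mature basophils to 99.0 ± 19.3 CPM in pre-basophils (edgeR adjusted p 5.03e-05), and Dnajc3, which acts in the endoplasmic reticulum, from 74.5 ± 10.7 to 155 ± 11.01 CPM (edgeR adjusted p 0.00343). For TRiC, Tcp1 rose from 51.9 ± 3.58 to 95.4 ± 7.81 CPM (edgeR adjusted p 7.84e-05), Cct6a from 33.2 ± 4.24 to 56.1 ± 7.11 CPM (0.000988) and Cct2 from 123 ± 8.83 to 156 ± 12.4 CPM (0.0296) in pre-basophils.

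In mitochondria, 5 of 14 other chaperones and proteases were higher in pre-basophils, 4 in BaPs against pre-basophils and 9 in BaPs against BM mature basophils, and none was lower in any of these. Their medians were 0.32, 0.30 and 0.92 against -0.00, 0.02 and 0.05 over all genes, of which 16.3%, 2.79% and 25.3% were higher. Hspa9, the mitochondrial HSP70, stood at 82.3 ± 5.69 CPM in BaPs, at 43.8 ± 4.63 CPM in pre-basophils and at 31.2 ± 2.22 CPM in mature cells of the marrow (SD, n = 3; edgeR adjusted p 0.000981 and 0.0129). Trap1, the mitochondrial HSP90, had 46.8 ± 4.001, 30.2 ± 0.942 and 19.5 ± 2.68 CPM (edgeR adjusted p 0.0192 and 0.00641). Hspa9 is also counted among the HSP70 relatives.

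Prefoldin, which hands actin and tubulin to TRiC, did not move as 1 set. In pre-basophils against BM mature basophils, 3 of 6 subunits were higher and 1 lower, with a median of 0.51, where 16.3% of all genes were higher and 11.0% lower. Pfdn5, the most abundant, fell from 485 ± 26.1 to 282 ± 6.51 CPM (n = 3 each, SD; edgeR adjusted p 8.08e-05), and Pfdn4 rose from 7.13 ± 2.09 to 15.7 ± 1.16 CPM (edgeR adjusted p 0.00146). Of 3 tested genes of heat shock factors and their regulators none was called in pre-basophils against BM mature basophils (0 also at an unadjusted p under 0.05), and Hsf1 (22.5 ± 3.36 against 16.6 ± 1.32 CPM, edgeR adjusted p 0.0419) and Hsf2 (10.96 ± 0.730 against 4.48 ± 0.743 CPM, edgeR adjusted p 0.000620) were higher in BaPs than in BM mature basophils. Hsbp1 had 61.4 ± 16.7 against 68.8 ± 5.23 CPM in that comparison (edgeR adjusted p 0.422). Of 10 small heat shock proteins 6 were in the table and 2 were tested, of which Hspb6 had 5.24 ± 0.945 CPM in pre-basophils, against 1.28 ± 0.900 CPM in BM mature basophils (edgeR adjusted p 0.0138) and Hspb11 had 18.4 ± 3.28 and 15.7 ± 2.28 CPM (edgeR adjusted p 0.446).

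Lists of handling and division genes moved with the groups as well. Of 18 immediate-early genes 12 were lower in pre-basophils than in BM mature basophils and 15 lower in BaPs than in BM mature basophils, with medians of -1.05 and -1.76, and 13 were lower in BaPs than in pre-basophils, with a median of -0.73. Of all genes 11.0%, 19.7% and 4.29% were lower in these comparisons. Fosb, the most abundant, had 12355 ± 1734 CPM in pre-basophils against 26763 ± 5788 CPM in BM mature basophils (n = 3 each, SD; edgeR adjusted p 0.00260). Zfp36 and Junb had 4502 ± 402 against 15362 ± 1618 CPM and 3374 ± 260 against 9635 ± 460 CPM (edgeR adjusted p 2.08e-06 and 4.47e-06). All 8 proliferation genes were higher in pre-basophils and in BaPs than in BM mature basophils, with medians of 2.67 and 2.68 and 16.3% and 25.3% of all genes higher. Pre-basophils had 707 ± 79.7 CPM of Mki67 against 87.1 ± 29.1 CPM (edgeR adjusted p 6.00e-06), 287 ± 31.5 against 36.0 ± 8.81 CPM of Top2a (1.56e-06) and 59.0 ± 7.71 against 9.15 ± 2.83 CPM of Mcm5 (3.61e-06). In the spleen 6 of the 8 were lower than in BM mature basophils (median -1.04), where 4.67% of all genes were. Whether the chaperone differences go with division or with handling was not tested.

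**Figure D5:**
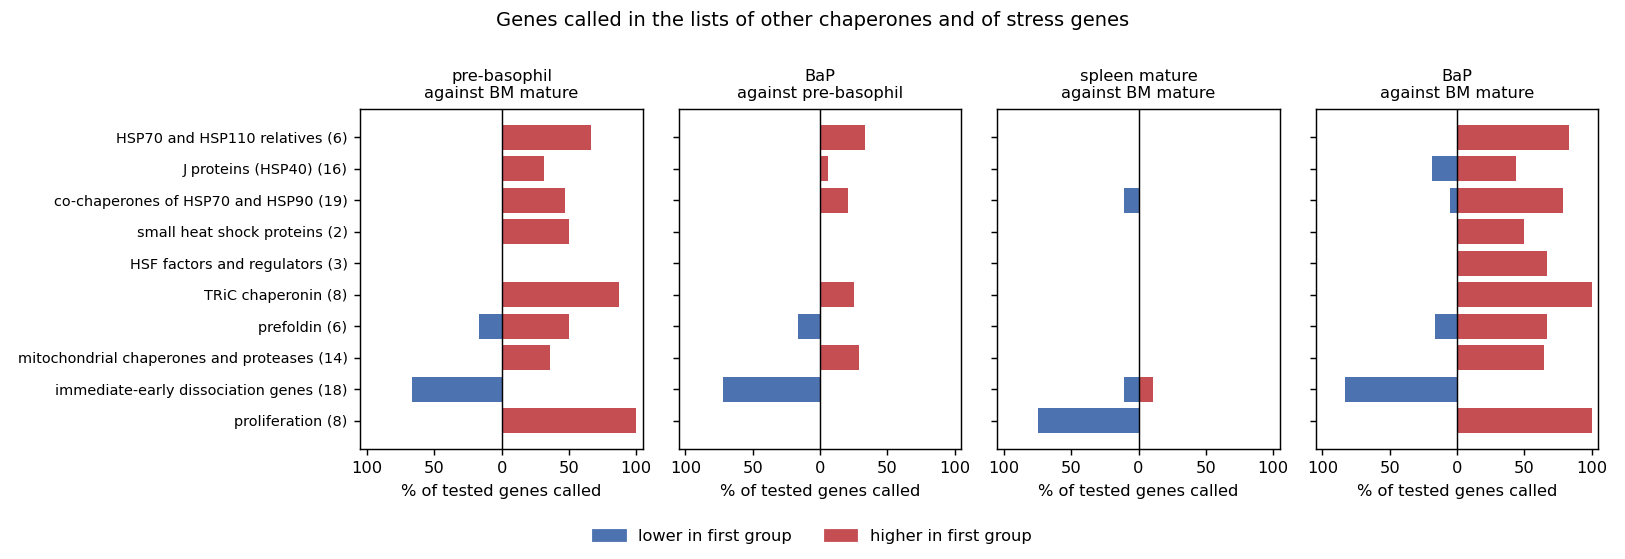
Share of the tested genes of each list (number in brackets) called higher (right, red) or lower (left, blue) in the first group of each comparison, at an edgeR adjusted p of 0.05. TRiC has 7 of 8 genes higher in pre-basophils than in BM mature basophils, the immediate-early genes are on the lower side in all 3 bone marrow comparisons, and in the spleen the largest share is that of proliferation genes, 6 of 8 lower.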

How the data were processed

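Bulk RNA sequencing measured 12 libraries in 4 groups of 3, with groups taken from the labels. Per the submitters' processing notes the authors trimmed reads with Cutadapt 3.4 and aligned them with Bowtie2 2.4.2, and they deposited raw counts per gene. Settings for multimapping, strand and molecular identifiers are not stated in the sources used here. The notes name GRCm39 and the study's methods GRCm38. Coordinates and lengths come from GENCODE on GRCm38, and genes were matched by symbol. A near-copy result for 1 gene is not reported here.

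Genes were filtered with filterByExpr, scaled by TMM and fitted with edgeR 4.0.16 in R 4.3.3 (quasi-likelihood F test, all 12 libraries, Benjamini-Hochberg adjustment over 15083 genes, threshold 0.05), tested on simulated data. Ratios used counts plus 0.5, without near-copies. Log2 CPM had a prior count of 2. Named list genes were the most abundant of a list and its 2 with the lowest p among the 4 groups. Alternatives included DESeq2 1.42.0 and limma 3.58.1. Members and lists were chosen with earlier results of these data known. Replicates are separate pools as far as the labels say. Outside the fit without the low-count filter, p-values therefore measure the spread between these samples, which may be technical.

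The replicate number was checked for pairing over all tested genes, not over the chaperones alone. Deviations from group means correlated at 0.138, 0.153 and 0.223 for the same numbers of pre-basophils and BM mature basophils, 0.228, 0.125 and 0.262 for BaPs and pre-basophils, and 0.137, 0.153 and 0.230 for BaPs and BM mature basophils, all over 0.1, so blocked values are given for these. For spleen and BM mature basophils they were 0.0206, 0.00763 and 0.0254.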

Additional observations from a re-analysis of the deposited data

How the results depend on the processing

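Of the 10 members, 2, 1, 1 and 5 were called in pre-basophils against BM mature basophils, BaPs against pre-basophils, spleen against BM mature basophils and BaPs against BM mature basophils, and 5 among the 4 groups. Of the 15083 genes tested, 4112, 1068, 1181 and 6785 were called in these comparisons, and 8714 among the 4 groups. RLE scaling, limma-voom, the sum of Hspa1a and Hspa1b, and adding near-copies (chosen after seeing the data) changed no member's call. The replicate block called 7, 4, 4 and 9 members and 10 among the 4 groups, and with the 9 bone marrow libraries alone (added after seeing the data) 7, 3 and 9. Of all genes it called 4483, 1399, 1703 and 7069, and 9081 among the 4 groups. With the bone marrow libraries alone it called 4399, 1292 and 6839 of 13536 genes. Replicate numbers did not pair spleen with BM mature libraries by the rule used. Averaged over the other groups, all 12 libraries correlated best with the libraries of their own number, which is a hint from the data and not the design. Without the low-count filter the counts were 6, 4, 6 and 9, and 10 among the 4 groups. Of 32227 genes this fit called 4248, 2091, 1796 and 7171, and 9833 among the 4 groups. Its p-values cannot be read as the spread between libraries. Library size alone called 4 in pre-basophils against BM mature basophils (4487 of all genes) and 3 in BaPs against pre-basophils (1620 of all genes). It moved the median log2 difference of all genes to 0.22, 0.23, 0.14 and 0.48, and Dnajb1 in BaPs against pre-basophils to 0.035. DEGES scaling called 0 members (884 of all genes) and DESeq2 2 (1168 of all genes) in BaPs against pre-basophils. DESeq2 called 2 in the spleen comparison (1273 of all genes). Fits of the 2 groups alone called 4, 0 and 3 in the first 3 comparisons (5108 of 12790, 375 of 13017 and 2340 of 14282 genes). The cause was not tested.

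Leaving out 1 library at a time gave 1 to 4, 0 to 3 and 0 to 3 called members in the first 3 comparisons. Of 14723 to 16403 genes tested, 2831 to 5251, 382 to 1831 and 241 to 2653 were called. Uncalled values changed sign in these fits. In BaPs against pre-basophils the log2 difference ran from -0.45 to 1.27 for Hspa1a, -0.45 to 1.10 for Hspa1b, -0.036 to 0.35 for Hspa8 and -0.33 to 0.026 for Dnajb1, in BaPs against BM mature basophils from -0.15 to 0.68 for Hsph1, and in the spleen comparison from -0.39 to 2.72 for Hspa1a, -0.016 to 0.43 for Hsp90aa1 and -0.065 to 0.19 for Hsp90ab1. The Hsp90aa1 to Hsp90ab1 ratio was -0.36 in bone marrow libraries alone and no longer passed. With exchanges only within a replicate number, spleen libraries included, it passed at -0.45 (exact permutation test, BH-adjusted p 0.0278). The Hspe1 to Hspd1 ratio did not pass in bone marrow libraries alone (0.33) and passed at 0.31 with the replicate block. Without single libraries it ran from 0.26 to 0.42, passing without pre-basophil replicate 2. With 7 to 408 counts per library for Hspa1a, small differences were not detectable.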
